A study of Mus musculus with 6 samples.

Results

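Wnt signalling genes were followed here in mouse uterus with and without a transgene for SF1 (SF-1), the nuclear receptor encoded by Nr5a1 that drives steroid-producing cell fates. The members were 56 listed genes, taken as 14 Wnt ligands, 15 receptors and co-receptors, 10 antagonists (9 secreted ones and Kremen1), 7 genes of the R-spondin axis and 10 intracellular or nuclear genes. Each gene was read from probe sets whose annotation named that gene alone, and the one with the highest mean log2 value over the 6 arrays stood for it. In this way 55 of 56 members were measured, of 18193 genes in all. Tcf7 had no such probe set in the table used here.

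RNA came from uterine horns of C57BL6J mice, collected 2 weeks after a surgery of unstated kind, with the cervix discarded. For each array, RNA of 2 uteri was pooled. The 3 control arrays carried SF1LsL/+, a transgene that needs Cre to be switched on, and no Cre, and came from the same breeding. The 3 SF1 arrays carried SF1LsL/+ together with Pgrcre/+, which puts Cre in cells that express the progesterone receptor gene Pgr and alters 1 copy of that gene. Ages and litters of the pooled mice are not given in the sources used here, so p-values measure the spread between these pools only. The values are linear intensities of probe sets, and array medians lay between 149.9 and 162.2. They order samples for 1 gene and do not rank different genes against each other.

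Wnt proteins are secreted lipid-modified ligands that bind Frizzled receptors. With the co-receptors Lrp5 and Lrp6 they stabilise beta-catenin, which then acts with TCF/LEF factors on target genes. With Ror and Ryk receptors they steer cell shape and polarity instead. In the uterus the pathway is known for patterning the reproductive tract, forming glands and preparing the stroma for implantation, with some ligands made by epithelium and others by stroma.

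More of these genes fell than rose in the SF1 uteri. A gene was called at a limma adjusted p under 0.05 (Benjamini-Hochberg over all probe sets). Of 55 members, 5 rose, 17 fell and 33 were not called. Over all 18193 genes 8.37% were called higher and 8.11% lower, against 9.09% and 30.9% of the members, so the share of risen members was near the background and the share of fallen ones was not. The members' median log2 change was -0.15, against -0.05 over all genes. Members were mostly bright, and bright genes were called more often. Among the brighter probe sets alone, 12.8% of all genes were called higher and 14.8% lower, against 10.6% and 38.3% of 47 members. After median centring 14 members were called lower and 5 higher, and the share of all called genes that were higher moved from 50.8% to 62.8%. The members were chosen with earlier results of these arrays known, so the counts are a description.

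**Figure D1:**
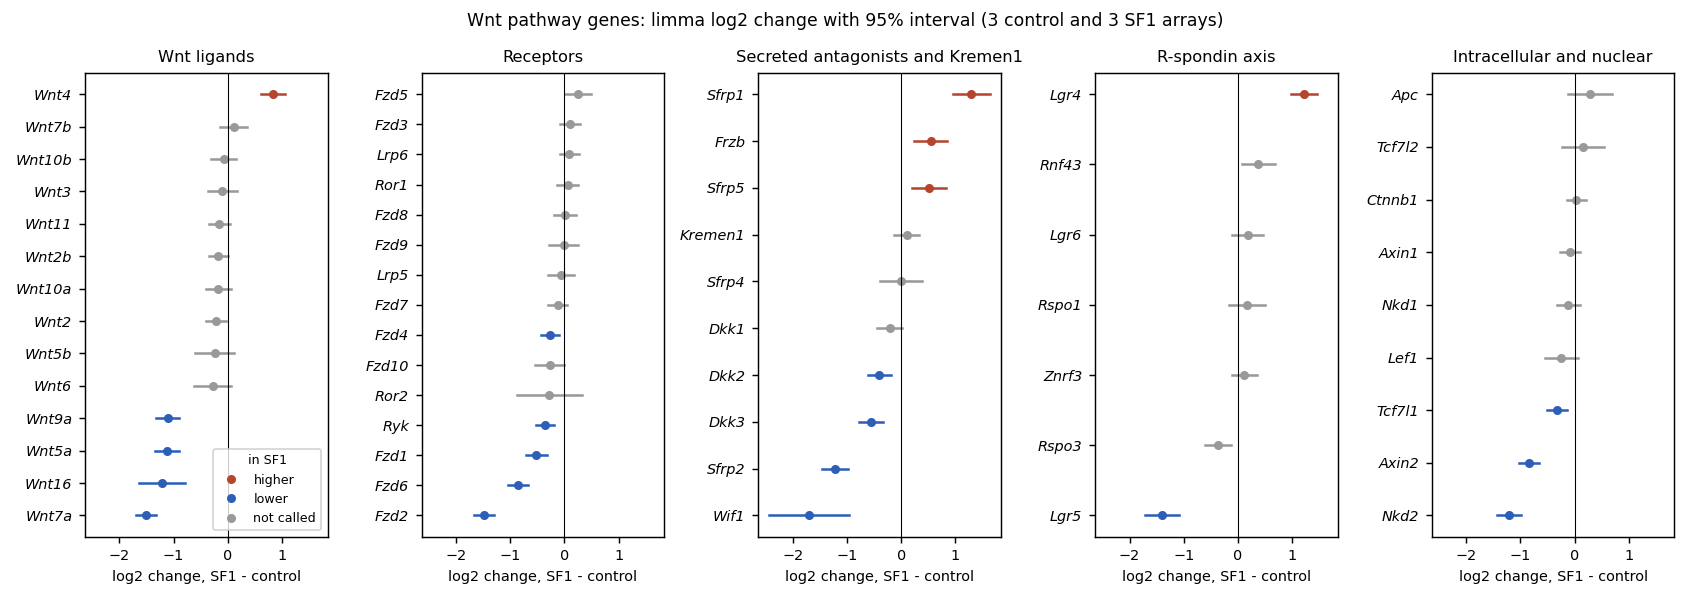
Each point is the limma log2 change (SF1 minus control, x axis) of 1 gene with its 95% interval, in 5 panels by role, red for genes called higher, blue for lower and grey for not called. Only Wnt4 among the ligands and Lgr4 in the R-spondin axis were called higher, whereas the antagonists had called genes on both sides, from Wif1 at -1.70 to Sfrp1 at 1.30.

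Among the 14 ligands, Wnt7a, Wnt5a, Wnt9a and Wnt16 fell and Wnt4 rose, and all 5 calls held in each of the 17 alternative settings. Wnt7a is made by the uterine epithelium and is needed for the pattern and glands of the uterus. In order of replicate number, the control arrays read 418, 406 and 405 and the SF1 arrays 138, 122 and 143, and later triplets follow that order. The control arrays lay close together and well above every SF1 array. The log2 change was -1.50 ± 0.08 (SE; limma adjusted p = 1.63e-05), a control mean 3.05 times the SF1 mean. Of its dimmer probe sets, neither was called (-0.30 and -0.02), and averaged over its probe sets Wnt7a gave -0.61, still called.

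Wnt5a, a stromal ligand that acts largely through Ror receptors, read 2264, 2508 and 2035 in control and 1079, 954 and 1047 in SF1. The groups stood clearly apart, with a control mean of 2269 ± 236 against 1027 ± 64.9 (SD, n = 3; log2 change -1.13 ± 0.10, SE; limma adjusted p = 0.000154). All 3 other Wnt5a probe sets were also called lower, by -0.78, -0.89 and -0.83. Wnt5b, its close relative, was not called (-0.24, 95% interval -0.60 to 0.11; limma adjusted p = 0.326).

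Wnt9a read 679, 611 and 676 in control and 278, 281 and 326 in SF1. Every SF1 array was far below every control array and the change was -1.11 ± 0.09 (log2, SE; limma adjusted p = 0.000115). A dim second Wnt9a probe set was not called (-0.04), and the average of both gave -0.57, still called. Wnt3a lies beside Wnt9a in the RefSeq gene order and is a ligand of the beta-catenin branch. It read between 132 and 154 in control and between 131 and 140 in SF1 and was not called (-0.05; limma adjusted p = 0.721). Wnt16 read 300, 331 and 249 in control and 83.6, 119 and 156 in SF1. Its SF1 arrays were uneven, with replicate 3 the highest, but none reached a control array (log2 change -1.22 ± 0.19, SE; limma adjusted p = 0.00349).

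Wnt4, a ligand needed for the female tract and for decidualization, was the ligand that rose. It read 669, 700 and 805 in control and 1216, 1288 and 1420 in SF1. Every SF1 array exceeded every control array (log2 change 0.84 ± 0.10, SE; limma adjusted p = 0.000788), and the other Wnt4 probe set rose by 1.22. The 9 ligands not called had log2 changes from -0.28 (Wnt6) to 0.11 (Wnt7b). Wnt7b, an epithelial ligand and the nearest relative of Wnt7a, read 267, 279 and 327 in control and 327, 344 and 276 in SF1, so its groups overlapped (95% interval -0.14 to 0.36). Wnt11, also made by uterine epithelium, read 649, 588 and 615 in control and 514, 559 and 587 in SF1, which just failed to overlap (-0.15; limma adjusted p = 0.253). Wnt3 was the dimmest member, between 11.9 and 21.6 in all arrays, and a change in it would be hard to see.

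**Figure D2:**
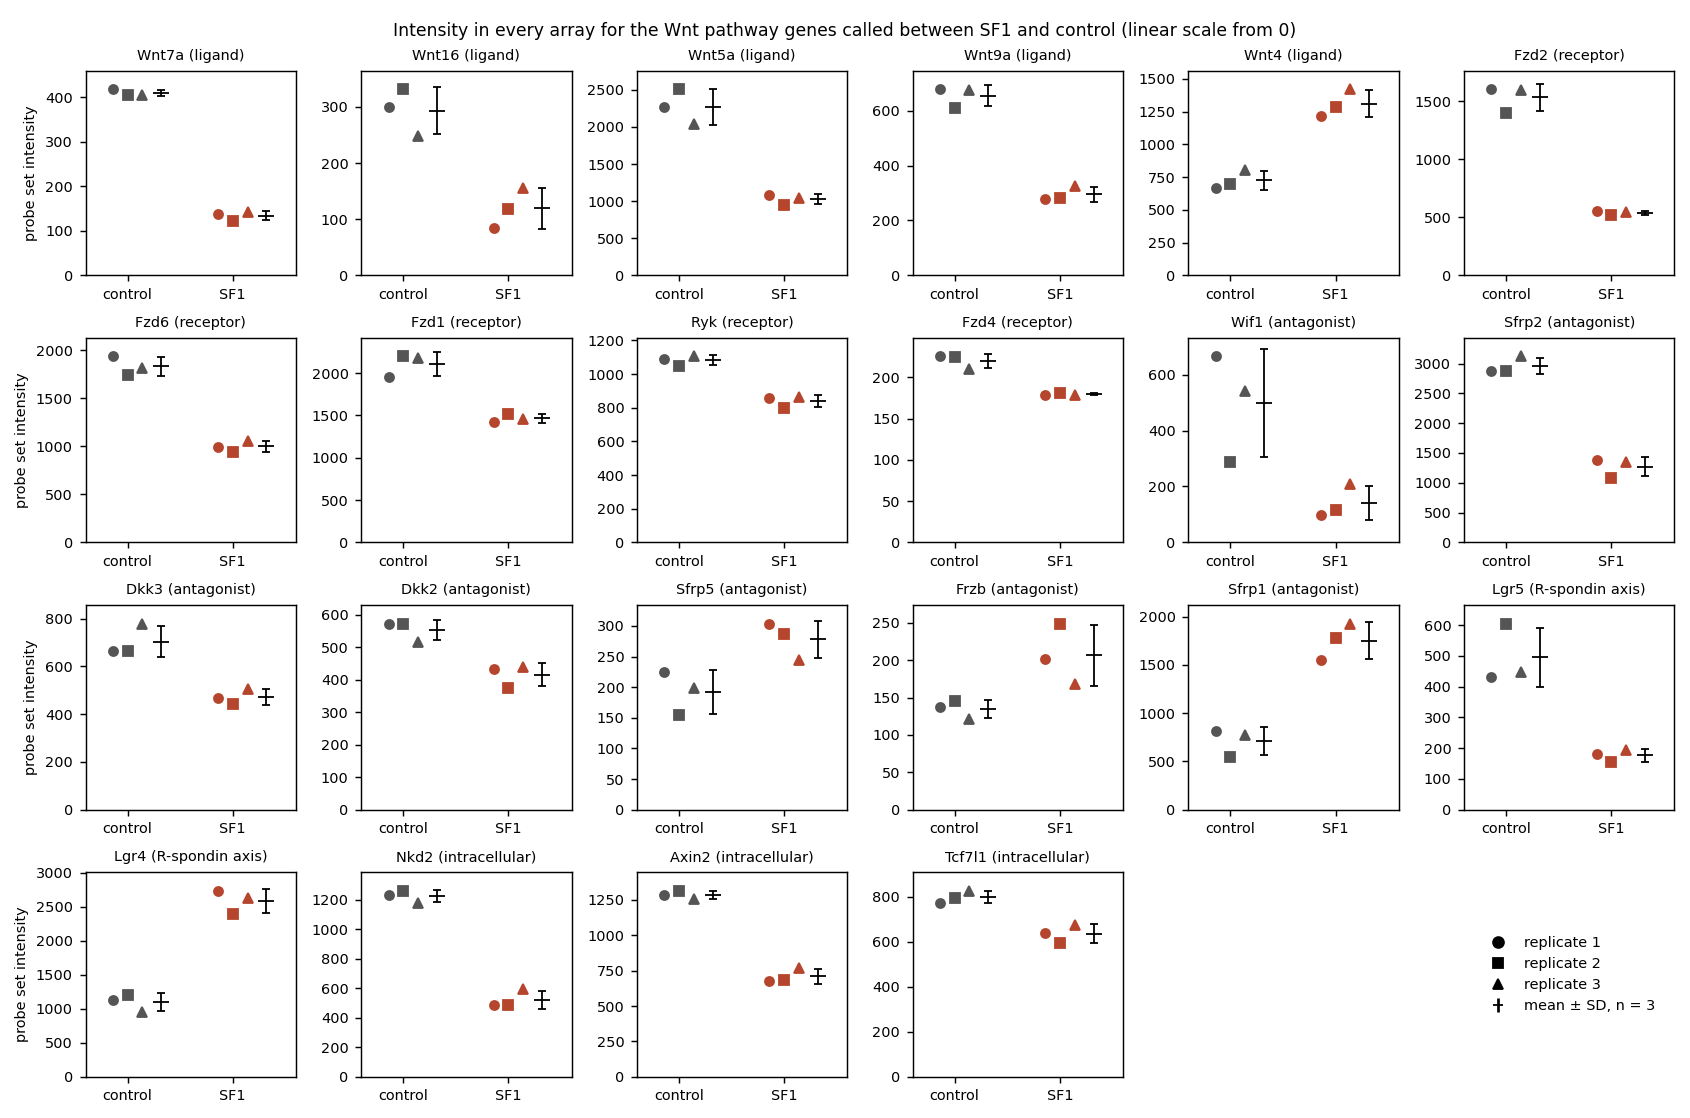
Probe set intensity (y axis, linear and starting at 0) in each of the 6 arrays for the 22 called genes, in panels ordered by role, with control in grey, SF1 in red, a marker shape per replicate number and the mean ± SD (n = 3) beside each group. In every panel the control and SF1 points do not overlap; the Wif1 control points run from 288 to 665.

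Of 15 receptors and co-receptors, 5 fell and 0 rose (limma; at an unadjusted p under 0.05, 6 were lower and 1 higher, where 18.4% of all genes were lower and 13.6% higher). Fzd2, a Frizzled that can bind Wnt5a, fell most. It read 1602, 1400 and 1593 in control and 550, 516 and 543 in SF1, and the SF1 arrays were nearly equal. The log2 change was -1.48 ± 0.08 (SE; limma adjusted p = 1.92e-05), and the other probe sets fell by -1.73 each.

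Fzd6, a Frizzled linked to planar polarity, read 1937, 1742 and 1816 in control and 997, 944 and 1056 in SF1 (log2 change -0.86 ± 0.08, SE; limma adjusted p = 0.000247). Its dimmer probe sets gave -0.42, called lower, and 0.02, not called, and their average with the first was -0.42, still called. Fzd1 read 1950, 2198 and 2181 in control and 1422, 1520 and 1458 in SF1 (-0.52 ± 0.08; limma adjusted p = 0.00383). In the probe set that stood for each gene, Fzd6 and Fzd1 separated the groups without overlap. A dim second Fzd1 probe set overlapped and was not called (-0.42, limma adjusted p = 0.11). Ryk, a kinase-like Wnt receptor, read 1090, 1049 and 1106 in control and 858, 797 and 866 in SF1 (-0.36; limma adjusted p = 0.0156). Its call was lost without control replicate 1 (adjusted p = 0.0565) or SF1 replicate 2 (0.0569), although a further Ryk probe set also fell by -0.36.

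Fzd4, the receptor of norrin in blood vessels, changed least among the called receptors. It read 226, 225 and 210 in control and 179, 181 and 179 in SF1 (-0.27; limma adjusted p = 0.0417). Leaving out any of the 6 arrays ended the call (highest adjusted p = 0.117), after quantile normalization (0.0891) and after median centring (0.109). The number of fallen receptors was 3 without control replicate 1 or without SF1 replicate 2.

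The Lrp5 and Lrp6 co-receptors, which the beta-catenin branch needs, were not called. Lrp5 was dim, between 40.2 and 57.6 in all arrays (-0.07), and a change in it would be hard to see. Lrp6 read 768, 807 and 811 in control and 892, 816 and 829 in SF1 (log2 change 0.09, 95% interval -0.09 to 0.26), with a dimmer probe set at -0.33. Fzd3, Fzd5, Fzd7, Fzd8, Fzd9, Fzd10 and Ror1 were not called either, with log2 changes from -0.27 (Fzd10) to 0.25 (Fzd5). Fzd5 read 238, 232 and 231 in control and 303, 239 and 307 in SF1, and was called higher without SF1 replicate 2 (adjusted p = 0.0361). Fzd10 was called lower without control replicate 2 (-0.41; adjusted p = 0.0212).

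Ror2, the main receptor tyrosine kinase for Wnt5a, depended on the probe set. The one that stood for the gene read 820, 360 and 755 in control and 481, 471 and 543 in SF1, with control replicate 2 below all SF1 arrays (-0.28; limma adjusted p = 0.508). The other read 688, 624 and 596 in control and 390, 427 and 443 in SF1, which did not overlap, and was called lower (-0.58 ± 0.09, SE; limma adjusted p = 0.00327). Without control replicate 2 the first was called lower too (-0.65; adjusted p = 0.00404). It was the 1 member of the 33 not called that had a called probe set.

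Most of the antagonists bind Wnts or their co-receptors outside the cell. The antagonist genes moved in both directions. Of 10, 3 rose and 4 fell, where 8.37% of all genes were called higher and 8.11% lower. Sfrp1, a secreted Frizzled-related protein that binds Wnts, rose most. It read 812, 549 and 772 in control and 1549, 1779 and 1928 in SF1, with control replicate 2 the lowest of all. The log2 change was 1.30 ± 0.15 (SE; limma adjusted p = 0.000758), and 3 of the 4 other Sfrp1 probe sets were called higher, by 1.41, 0.75 and 1.58. Sfrp2, a relative of Sfrp1, moved the other way. It read 2876, 2876 and 3120 in control and 1386, 1085 and 1343 in SF1 (-1.21 ± 0.11; limma adjusted p = 0.000153).

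Sfrp5 and Frzb, both of the same family, were called higher with small changes. Sfrp5 read 224, 154 and 198 in control and 304, 286 and 244 in SF1 (0.51; limma adjusted p = 0.0415), and its other probe set gave 0.03. Frzb read 138, 146 and 122 in control and 202, 249 and 168 in SF1 (0.55; limma adjusted p = 0.0292). Leaving out 1 array ended each call in 4 of 6 cases: for Sfrp5 control arrays 2 and 3 and SF1 arrays 1 and 2 (highest adjusted p = 0.137), for Frzb control arrays 1 and 3 and SF1 arrays 1 and 2 (0.0882). Only 1 antagonist, Sfrp1, was called higher when control array 3, SF1 array 1 or SF1 array 2 was left out. Sfrp4, the remaining family member, was not called and was spread widely in SF1, at 638, 901 and 528 against 675, 710 and 645 in control.

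Wif1, a secreted inhibitor that binds Wnts directly, fell from 665, 288 and 542 in control to 97.9, 116 and 210 in SF1. Control replicate 2 was again the lowest control array and still above the highest SF1 array. The log2 change was -1.70 ± 0.32 (SE; limma adjusted p = 0.00972). It was -2.04 without control replicate 2, and the call was lost with trended and robust variance moderation (adjusted p = 0.0629). Over all 55 members the lowest control value was in replicate 1 for 16, in replicate 2 for 18 and in replicate 3 for 21. Such ranks do not show how far an array lay below the others. Control replicate 2 was also well below the other control arrays for Apc (588 against 1014 and 876) and Tcf7l2 (413 against 629 and 672).

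The Dickkopf genes fell where they were called. Dkk3, a divergent family member, read 666, 666 and 779 in control and 469, 440 and 507 in SF1 (-0.56 ± 0.09, SE; limma adjusted p = 0.00547), and its other probe set fell by -0.51. Dkk2, which binds Lrp5 and Lrp6, read 571, 574 and 518 in control and 434, 374 and 441 in SF1 (-0.40; limma adjusted p = 0.0215). The Dkk2 call was lost when control array 1, control array 2 or SF1 array 2 was left out (highest adjusted p = 0.0743) and after median centring (0.0543). Dkk1, the classic inhibitor of those co-receptors, read 114, 118 and 103 in control and 81.4, 96.2 and 106 in SF1 and was not called (-0.21; limma adjusted p = 0.203). Kremen1, a receptor for Dickkopf proteins, was not called (0.10). Its dimmer probe sets went the other way without overlap (-0.22 and -0.30) and were not called either.

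R-spondins strengthen Wnt signals: they bind Lgr4, Lgr5 or Lgr6 and take the ubiquitin ligases Znrf3 and Rnf43, which remove Frizzled receptors, off the cell surface. Within this axis Lgr4 rose and Lgr5 fell, and both calls held in each of the 17 alternative settings. Lgr4 read 1132, 1209 and 955 in control and 2738, 2399 and 2629 in SF1. The SF1 mean was 2.36 times the control mean (log2 change 1.23 ± 0.11, SE; limma adjusted p = 0.000141). Lgr5, a target of beta-catenin and a marker of stem-like epithelial cells in several organs, read 430, 605 and 449 in control and 181, 154 and 193 in SF1. The log2 change was -1.40 ± 0.14 (SE; limma adjusted p = 0.000298). For each of these genes a much dimmer second probe set was not called (Lgr4 at -0.15 and Lgr5 at -0.18), and averaging gave 0.54 and -0.79, still called.

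The other 5 genes of the axis were not called. Rspo3 read 1861, 1997 and 2067 in control and 1505, 1346 and 1743 in SF1. Its groups did not overlap and it lay just past the threshold (-0.37, 95% interval -0.61 to -0.13; limma adjusted p = 0.0508). It was called lower without SF1 replicate 3 (0.0265), among brighter probe sets alone (0.0304), with a pseudocount of 64 (0.0314) and with trended and robust moderation (0.02). Rnf43 read 473, 451 and 376 in control and 682, 497 and 529 in SF1 (0.38; limma adjusted p = 0.1). Rspo1, a ligand of the early ovary, read 548, 721 and 612 in control and 683, 596 and 851 in SF1, so its groups overlapped. Znrf3 (0.12) and Lgr6 (0.18) also overlapped.

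Of 9 measured intracellular and nuclear genes, 3 fell and 0 rose (limma; 3 and 0 at an unadjusted p under 0.05, where 18.4% of all genes were lower and 13.6% higher). Nkd2, which binds Dishevelled and dampens the signal, read 1233, 1263 and 1180 in control and 486, 488 and 592 in SF1. The log2 change was -1.21 ± 0.10 (SE; limma adjusted p = 9.44e-05), and 2 of its 3 other probe sets were called lower, by -1.05 and -0.41, with an average of -0.69 over all 4. Nkd1, its paralog, read 742, 767 and 754 in control and 608, 740 and 749 in SF1 and was not called (-0.11; limma adjusted p = 0.457).

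Axin2, a scaffold of the beta-catenin destruction complex and a widely used readout of the pathway, read 1283, 1316 and 1259 in control and 675, 684 and 772 in SF1. Both groups were tight and far apart (-0.84 ± 0.08, SE; limma adjusted p = 0.000276). The dim second Axin2 probe set gave -0.24 and was not called, and the average of both was -0.54, still called. Tcf7l1, a TCF factor that mostly represses, read 772, 795 and 827 in control and 640, 593 and 675 in SF1 (-0.32; limma adjusted p = 0.0324). Leaving out any array except SF1 replicate 3 ended the call (highest adjusted p = 0.101), after quantile normalization (0.0515) and after median centring (0.0813).

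Ctnnb1, the gene of beta-catenin itself, read 9801, 9184 and 9585 in control and 10032, 9338 and 9851 in SF1. The groups overlapped and the interval of the log2 change was narrow, from -0.14 to 0.20. Lef1, a TCF/LEF factor and target, read 958, 837 and 774 in control and 590, 812 and 769 in SF1 (-0.25; limma adjusted p = 0.251), and was called lower only with the mean of its probe sets (-0.31; adjusted p = 0.0419). Axin1, Apc and Tcf7l2 were not called, with log2 changes of -0.09, 0.28 and 0.15.

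Beta-catenin raises the transcription of several of its own regulators, and 8 of the members are such feedback targets. Of the 7 measured, Axin2 and Lgr5 fell and 0 rose, while Dkk1, Lef1, Nkd1, Rnf43 and Znrf3 were not called (limma; at an unadjusted p under 0.05, 2 were lower and 1, Rnf43, higher, beside 18.4% and 13.6% of all genes). Their median log2 change was -0.21. Axin2 and Dkk1 are shown with their promoters because the first was called lower and the second was not called. The Dkk1 change was -0.21, with a 95% interval from -0.44 to 0.02. The 250 bases before the start of each gene come from RefSeq (GRCm38.p6) and run 5′ to 3′ on the gene's strand, at chr11:108920099-108920348 (plus strand) for Axin2 and chr19:30549497-30549746 (minus strand) for Dkk1. Capitals mark matches to a TCF/LEF core, searched on both strands in its versions CTTTGAA (ending in 2 adenines), CTTTGAT (adenine, then thymine), CTTTGTA (thymine, then adenine) and CTTTGTT (2 thymines).
Axin2: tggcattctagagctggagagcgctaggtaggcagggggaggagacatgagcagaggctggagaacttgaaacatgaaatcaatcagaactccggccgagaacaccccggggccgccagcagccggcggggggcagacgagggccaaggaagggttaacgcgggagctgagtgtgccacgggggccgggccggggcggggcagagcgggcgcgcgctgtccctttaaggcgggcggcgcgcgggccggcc
Dkk1: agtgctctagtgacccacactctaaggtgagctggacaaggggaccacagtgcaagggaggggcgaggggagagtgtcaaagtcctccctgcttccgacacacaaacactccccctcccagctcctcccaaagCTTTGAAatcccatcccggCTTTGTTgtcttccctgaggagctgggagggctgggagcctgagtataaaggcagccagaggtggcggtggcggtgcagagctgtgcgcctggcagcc
The Dkk1 window held 2 cores, which began 117 and 98 bases before the start, and the Axin2 window held 0. Such a core was in the same window of 14.8% of 32851 promoters. It was found in 6 of the 46 promoters of the 37 members that had one (Dkk1, Fzd7, Lef1, Tcf7l2, Wnt11 and Wnt5b), near the share of all promoters. Of these 37 members 16 were called, and none of the 16 had the core. The motif bound by SF1, searched as CAAGGTCA and in its other version CAAGGCCA on both strands, was in 3.28% of all promoters and in 0 of the 46 promoters of these 37 members. A window without these letters says nothing about sites elsewhere.

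**Figure D3:**
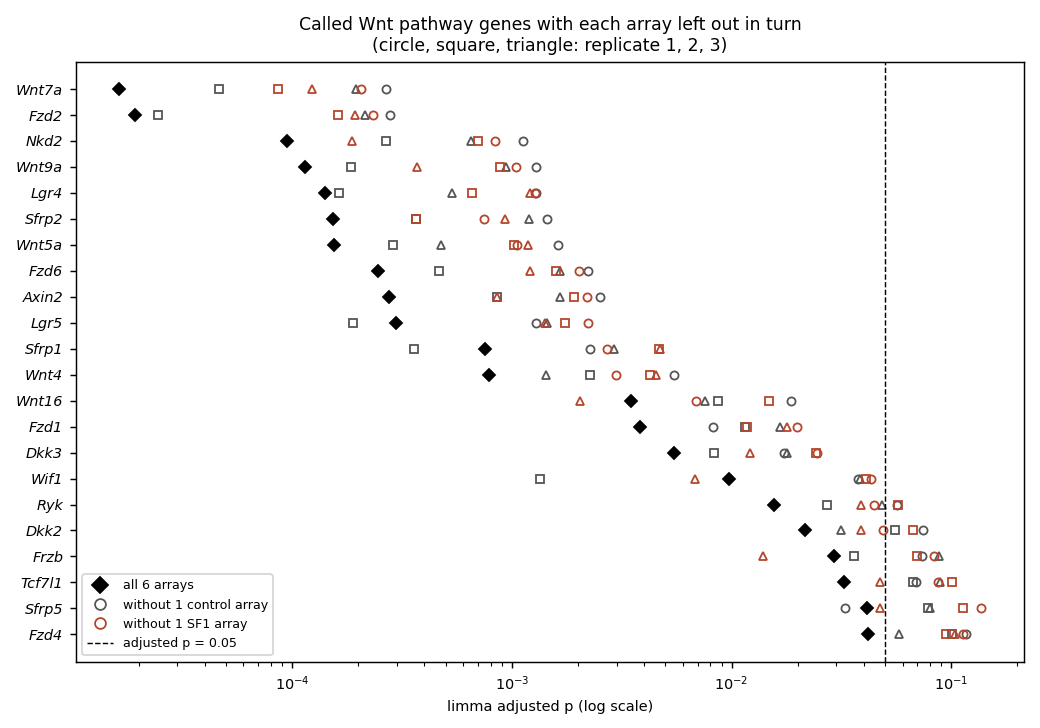
Limma adjusted p (x axis, log scale) of the 22 called genes with all 6 arrays (black diamond) and with each array left out in turn (open markers, grey for a control and red for an SF1 array). Open markers stay left of the dashed line at 0.05 for 16 genes, and cross it for Ryk, Dkk2, Frzb, Tcf7l1, Sfrp5 and Fzd4.

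The replicates could be compared within groups. Of the 17 fallen members, 12 had their highest SF1 value in SF1 replicate 3, 3 in replicate 1 and 2 in replicate 2, so for most fallen genes replicate 3 lay nearest to control. The groups did not overlap in 39.9% of all genes. All SF1 arrays were below all control arrays for 22 of 55 members (40%, against 23.7% of all genes) and above them for 8 (14.5%, against 16.2%). Of the 18 called members with more than 1 probe set, 8 had a further one called in that direction and 0 in the other.

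Genes around the members were counted from lists of the pathway. These counts, and those of cell type markers below, stand beside 8.37% of all genes called higher and 8.11% called lower. Of 17 other ligands and secreted modulators, 4 fell and 0 rose (limma; at an unadjusted p under 0.05, 7 were lower and 0 higher, beside 18.4% and 13.6% of all genes). Ndp, the gene of norrin, a ligand of Fzd4 outside the Wnt family, read 467, 605 and 532 in control and 196, 157 and 184 in SF1 (-1.49 ± 0.12, SE; limma adjusted p = 8.71e-05). Apcdd1, a membrane inhibitor of Wnt signals, fell from a mean of 4376 to 2239 (-0.96), and Notum, an enzyme that strips the lipid from Wnts, from 132 to 78.3 (-0.66). Wnt8b, dim in all arrays, was the other (-0.45).

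Of 15 genes for Wnt production and further co-receptors, 1 rose and 6 fell. Gpc4, a cell-surface glypican, read 517, 452 and 535 in control and 1521, 1412 and 1349 in SF1 (1.48 ± 0.09, SE; limma adjusted p = 2.87e-05). Adgra2 and Reck, known from brain vessels as partners in Wnt7a and Wnt7b reception, fell by -1.17 and -0.43, and Ptk7, a polarity co-receptor, by -0.83. Porcn, which adds the lipid, Wls, which carries Wnts to the surface, and Gpc3 were called lower with changes of -0.35, -0.38 and -0.35. Leaving out 1 array ended each of these 3 calls in at least 4 of 6 cases, and 3 genes of the list were called lower without control replicate 2 or SF1 replicate 2.

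Of 21 cytoplasmic regulators of beta-catenin, such as Dishevelled, Gsk3 and casein kinase genes, 1 fell and 0 rose (limma; at an unadjusted p under 0.05, 6 lower and 0 higher, beside 18.4% and 13.6% of all genes). It was Dact2 (-0.68), which binds Dishevelled. Without control replicate 2 the count of fallen genes was 2. Of 16 nuclear partners, 4 fell and 1 rose. Sox17, a transcription factor of glands and endothelium that also binds beta-catenin, fell from 4217 to 2025 (-1.05), Bcl9l and Tle1 by -0.51 and -0.50, and Tle2, a corepressor, rose from 392 to 678 (0.77).

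Of 19 other target genes, 5 fell and 1 rose, with a median log2 change of -0.02. Msx1, a homeobox gene of the uterine epithelium, fell from 2544 to 904 (-1.48), Ephb3 by -0.62 and Fgf18 by -0.59, and Ascl2 rose (0.52). Of 16 planar polarity genes, 5 fell, among them Prickle1 (-0.61), Vangl2 (-0.53) and Mapk8 (-0.41), and Intu, which serves cilia as well, rose (0.49). Celsr1 had the largest change of that list but was not called (1.15, limma adjusted p = 0.0755). It read 345, 96.2 and 294 in control and 502, 471 and 527 in SF1, without overlap. A second target gene was called higher without SF1 replicate 2 or 3, and a second polarity gene without control replicate 1 or 2.

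**Figure D4:**
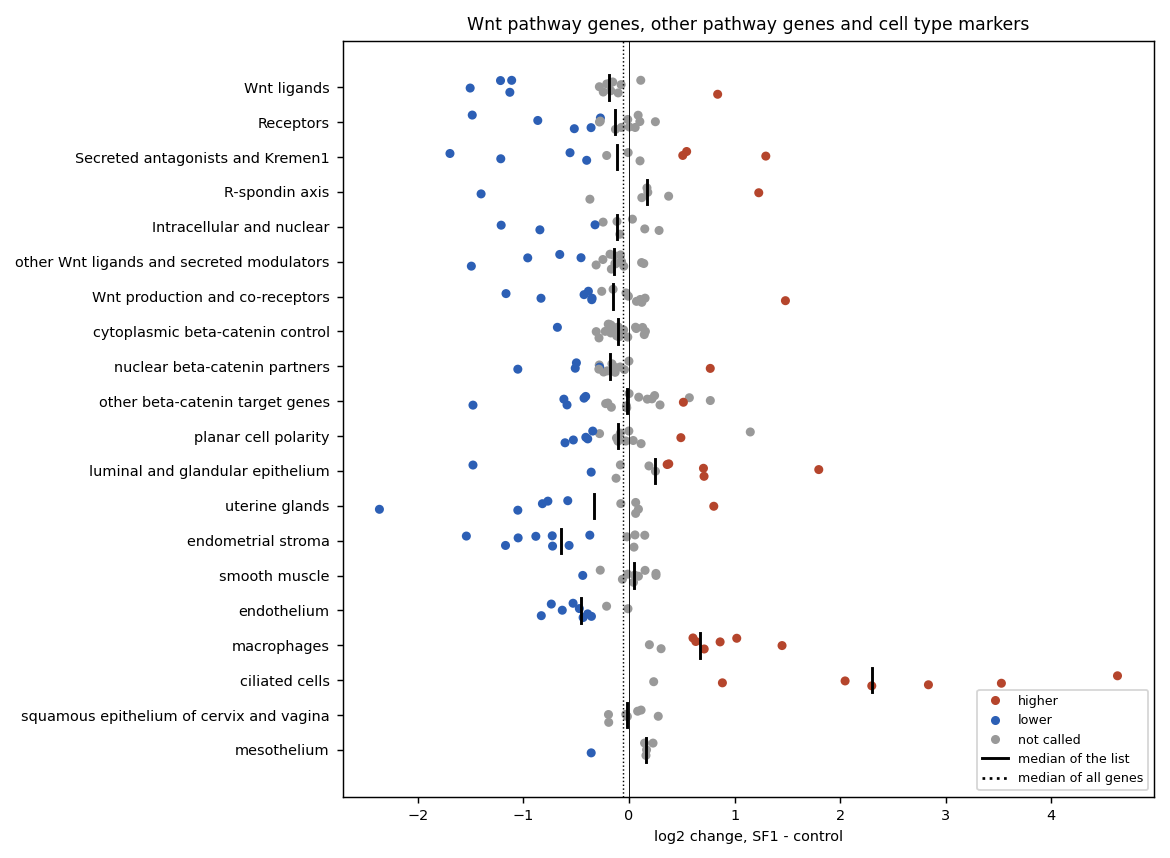
Each point is the log2 change (SF1 minus control, x axis) of 1 gene, in rows for the 5 roles of the members, the other pathway lists and the cell type marker lists, coloured by call, with the list's median as a black bar and the median of all genes as a dotted line. Endometrial stroma (median -0.65) and endothelium (-0.45) lie to the left, macrophages (0.67) and ciliated cells (2.30) to the right.

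In whole uterus, fewer cells of a type and less RNA per cell cannot be told apart, and markers of several cell types moved with the Wnt genes. Of 12 stromal markers, 8 fell and 0 rose (limma; also 8 and 0 at an unadjusted p under 0.05), led by Twist2 (-1.54) and Foxl2 (-1.17). The 4 not called were Vim (-0.02), Col1a1 (0.05), Col3a1 (0.15) and Lum (0.06). The summed intensity of the 12 markers was 58192 to 61138 in control and 47831 to 51221 in SF1. Sums here and below weigh bright markers most, and Dcn alone had means of 18925 in control and 14630 in SF1. Wnt5a, Fzd2 and Sfrp2, with linear means of SF1 at 0.452, 0.35 and 0.43 of control, fell beside the 8 fallen stromal markers.

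Beside Wnt7a, an epithelial ligand, the epithelial markers were mixed: of 11, 5 rose, among them Krt7 (1.80) and Cdh1 (0.71), 2 fell, Msx1 and Krt19 (-0.36), and 4 were not called. Their sum was 20431 to 21420 in control and 21933 to 24222 in SF1. The count of risen ones was 2 without SF1 replicate 1 and 3 without SF1 replicate 2, control replicate 1 or control replicate 3, and Krt19 lost its call when control array 1 or 3 or SF1 array 1 or 3 was left out. Of 10 gland markers, 5 fell, led by Cxcl15 (-2.36) and Sox17, and 1, Foxa2, rose (0.80), with sums of 11633 to 12118 and 5923 to 7783. Of 10 endothelial markers, 8 fell and 0 rose (limma; also 8 and 0 at an unadjusted p under 0.05), beside Fzd4 and Ndp, led by Cdh5 (-0.83) and Robo4 (-0.74), with sums of 6671 to 7065 and 4548 to 5035. With 1 array left out, 6 to 7 endothelial markers were called lower, and over all alternatives the lowest count was 3. Pecam1 and Tie1 each lost their call in 5 of the 6 fits without 1 array, and after median centring.

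Of 8 macrophage markers 6 rose and 0 fell (also 6 and 0 at an unadjusted p under 0.05), with sums of 4929 to 6860 in control and 8129 to 11898 in SF1, led by Aif1 (1.45) and C1qa (1.02), and of 7 ciliated cell markers 6 rose and 0 fell (also 6 and 0), with sums of 1266 to 1336 and 4277 to 6200, led by Dynlrb2 (4.63) and Rsph4a (3.53). Of 10 smooth muscle markers 1 fell, Synpo2 (-0.44), and of 5 mesothelial markers 1, Krt19. Leaving out 1 array ended each of these calls in 4 of 6 cases. Of 7 squamous markers of cervix and vagina 0 were called, also at an unadjusted p under 0.05, with sums of 1112 to 1184 and 962 to 1329. No marker was at 0 in any array, but no probe set read below 1, so this does not show that each cell type was present. The count of risen macrophage markers was 3 without SF1 replicate 1 or SF1 replicate 2, and 1 squamous marker was called higher without SF1 replicate 1. The part of these cell types in the changes of the Wnt genes was not tested.

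The targeted genes bear on what the contrast means. Both Nr5a1 probe sets were not called (0.00 and 0.08), and whether they lie within the transgene's cDNA is not known here, so they check nothing about the labels. Pgr read 4899, 4747 and 4744 in control and 1932, 1719 and 2027 in SF1 (-1.34 ± 0.09, SE; limma adjusted p = 3.23e-05). The Cre allele, which alters Pgr, was present in the SF1 group only, so SF1, Cre and Pgr dose cannot be told apart for any Wnt gene.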

How the data were processed

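The intensities were deposited by the authors as probe set values on a linear scale, between 1 and 25325. Per the labels' protocols, biotin-labelled total RNA was hybridised to the Affymetrix Mouse Genome 430 2.0 array, while the summarization software was not stated in those protocols or in any header (not given in the sources used here). Of 45101 probe sets, 64 controls were set aside and 45037 tested. A platform annotation gave 34945 of them 1 symbol, 932 several and 9160 none. A gene took the probe set with the highest mean log2 value.

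Values were fitted as log2(value + 16) with limma 3.58.1 (lmFit, eBayes) in R 4.3.3, SF1 against control, with Benjamini-Hochberg adjustment over all tested probe sets. Log2 changes are on that scale and understate those of dim genes. All adjusted p-values are from limma. Across probe sets, the control arrays had a median log2 SD of 0.108 and the SF1 arrays of 0.1, and 3 arrays a group limit the precision. The fit was tested on simulated arrays. Tables and plots used pandas 2.3.3 and matplotlib 3.10.9.

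Members and lists were chosen with earlier results of these data known. Every called member was given with all 6 values, as were uncalled members of known uterine role, and from each list up to 3 called genes a direction (2 for cell types). Beyond that rule, Porcn, Wls, Gpc3, Wnt8b, Celsr1, Dcn, Pecam1, Tie1 and the uncalled stromal markers were named after their values were seen. The 17 alternatives changed normalization, filter, pseudocount, variance model, weights, probe set rule, threshold, the replicate number as a block, or left out an array. Uncalled members outside the naming rule that are given by array were also chosen after their values were seen.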

Additional observations from a re-analysis of the deposited data

How the results depend on the processing

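No called member changed sign in the 17 alternatives, and 13 of 22 kept their call in all of them. Over the fits without 1 array, called members numbered 3 to 5 higher and 13 to 17 lower, and all genes 1025 to 1294 higher and 908 to 1118 lower. Averaging all probe sets of a gene left 3 members higher, without Sfrp5 and Frzb. The other Sfrp5 probe set gave 0.03. The other Frzb probe set gave 0.53, with control arrays at 142, 36.6 and 118. At an adjusted p under 0.01, 3 members were higher and 13 lower, and 848 genes higher and 710 lower, fewer by construction. With a fold of at least 1.5 in addition, 3 members were higher and 11 lower, and 780 genes higher and 499 lower. Same-numbered arrays of the groups did not deviate together (correlations -0.06, -0.10 and -0.18). With 3 arrays a group, these correlations cannot show whether same-numbered arrays shared handling. The replicate block gave 1139 genes higher and 932 lower, and 4 and 14 members. Beyond the losses given with each gene, Sfrp5 lost its call with a pseudocount of 1 (adjusted p = 0.0624), array weights (0.0719) and averaged probe sets (0.0812), as did Frzb (0.0848) and Fzd4 (0.0889) with averaged probe sets, and Fzd4, Sfrp5, Dkk2 and Tcf7l1 with the block (0.108, 0.0543, 0.0624 and 0.0754). Signs turned only for members that were not called, and for Nr5a1. Quantile normalization turned Fzd9 (0.039), Sfrp4 (0.029) and Ctnnb1 (-0.035), and median centring Fzd9 (0.039) and Sfrp4 (0.043). Array weights turned Fzd8 (-0.037) and Fzd9 (0.066), and the mean of probe sets Fzd3 (-0.040), Fzd8 (-0.12), Lrp6 (-0.12) and Kremen1 (-0.14). Without 1 array, Fzd8 ranged from -0.069 to 0.054, Fzd9 from -0.12 to 0.10, Sfrp4 from -0.21 to 0.16, Tcf7l2 from -0.062 to 0.28, Wnt10b from -0.13 to 0.0046, Lrp5 from -0.17 to 0.028 and Nr5a1 from -0.054 to 0.085. Dim members such as Wnt3 are limited by signal over background.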
